A study of Mus musculus with 46 samples.

Results

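The genes described here were at 5 FPKM or more in each of 3 Rbbp5 knockout (KO) epiblast libraries from day 5.5 mouse embryos (E5.5), and under 2 FPKM in each of 3 wild-type (WT) libraries of the same stage. FPKM is a transcript level, in mapped fragments normalised to transcript length and to library size. A cap of 20 FPKM on the mean over the 7 WT libraries of the day 3.5 inner cell mass (ICM, the cluster of cells in the blastocyst that gives rise to the epiblast) was also applied. Of the 7182 genes of the expression table, 59 met these thresholds. Of these, 14 were set aside by name, among them Elf5, Tead4, Fgfr2, Krt7 and 4 Rhox genes, which left 45 genes. They were drawn from 1612 genes that were as low in WT libraries at E5.5 and in the WT ICM, of which 59 genes, or 3.66%, reached the KO threshold. The mirror rule, with KO and WT exchanged at E5.5 and the same cap, found 20 genes. The E5.5 values chose the 45 genes, so the differences between KO and WT libraries at E5.5 are given as a description, with no test.

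The study disrupted Rbbp5 in mouse zygotes and measured RNA, histone marks, chromatin accessibility and DNA methylation in single embryos and cells through implantation. KO embryos were made by injecting Cas9 mRNA with a guide RNA into wild-type zygotes, or Cre mRNA into Rbbp5 flox/flox zygotes. The labels do not tie either method to a library, and the genotype of the WT embryos is given only as WT. Of 46 samples, 33 were RNA libraries: 7 KO and 7 WT ICMs at E3.5, 3 KO and 7 WT single epiblast cells and 2 KO and 1 WT primitive endoderm cells at E4.5, and 3 KO and 3 WT epiblasts at E5.5. ICMs were freed from the outer layer of the blastocyst by immunosurgery, and E5.5 epiblasts were cut by hand from embryos recovered from the uterus. The labels call each ICM and E5.5 library a single embryo, and do not say whether embryos shared a litter, so p-values measure the spread between these libraries. The Rbbp5 transcript was not analysed here and gave no check of the knockout.

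Rbbp5 is a subunit shared by the SET1 and MLL complexes, the enzymes that methylate lysine 4 of histone H3, a mark of active promoters and enhancers. The epiblast of the implanting embryo is the founder tissue of the fetus. It lies inside a layer of visceral endoderm and beside the extraembryonic ectoderm, a trophoblast tissue that contributes to the placenta and is normally kept apart from the epiblast by its own transcription factors and by DNA methylation. Many genes of epithelial and secretory trophoblast, such as matrix proteins and placental surface proteins, are normally low in the epiblast. Keratins are not all low there, with Krt18 at 89.7, 60.6 and 98.2 FPKM and Krt8 at 14.9, 12.6 and 18.0 FPKM in the 3 WT libraries at E5.5.

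Plac1, Lgals3 and Wnt7b of the 45 genes were on a list of trophoblast markers, and the remaining markers of that list were used to check the epiblast label of the KO libraries. Of 16 further trophoblast markers tested, 14 were higher in KO libraries and 0 were lower, with a median log2 difference of 3.75, where 15.6% of all 5956 genes tested were called higher and the median over all genes was -0.07 (limma on log2(FPKM + 1), adjusted p under 0.05 over all genes). Of these markers, 5 had met the thresholds above, which fixed their direction, and had been set aside by name. Without them 9 of 11 were higher. Among these 11, Gata2, Gata3 and Rhox9 had WT means of 0.0103, 0.427 and 0.166 FPKM. They reached the filter of 1 FPKM on the mean only through KO libraries, so a higher call was close to fixed for them. The marker list was also chosen with earlier results of these data known. Gata3, a transcription factor of the trophoblast lineage, was at 241, 88.8 and 112 FPKM in KO replicates 1 to 3, against 0.555, 0.129 and 0.596 FPKM in the 3 WT libraries, and Elf5, a trophoblast stem cell factor, at 31.6, 30.1 and 33.4 FPKM in KO replicates 1 to 3, against 0, 0 and 0.0451 FPKM in the 3 WT libraries. Ascl2 (adjusted p = 0.225) and Cdh3 (adjusted p = 0.521) did not pass, and Cdx2, which defines the early trophoblast, was too low to be tested, at 0, 3.21 and 0.828 FPKM in KO replicates 1 to 3, against 0 FPKM in all 3 WT libraries. Most epiblast markers tested were lower. Pou5f1, the core pluripotency factor Oct4, was at 4.57, 5.07 and 19.9 FPKM in KO replicates 1 to 3, against 190.4, 126 and 103 FPKM in the 3 WT libraries (log2 difference -3.94, SE 0.49, adjusted p = 0.000785), and 4 of 6 core pluripotency genes and 3 of 4 formative epiblast genes (Otx2, Dnmt3a and Dnmt3b) were called lower, where 18.5% of all genes were. Of 5 naive pluripotency genes tested, Klf5, Esrrb and Tet2 were higher and Nanog was lower. Klf5, Esrrb and Tet2 had WT means of 0.282, 0.0397 and 0.416 FPKM. They too reached the filter only through KO libraries, so a higher call was close to fixed for them. Klf2, Klf4, Tbx3 and Prdm14 were too low to be tested, with KO means of 0.527, 0.869, 0.523 and 0.178 FPKM. Of 8 tested genes from a list of germline genes repressed by DNA methylation, 1 was higher and 6 were lower. These 8 were not silent in the WT libraries, with WT means from 3.76 FPKM (Slc25a31) to 35.2 FPKM (Tuba3a). Of 10 p53 targets 1 was higher and 1 lower. Of 9 imprinted genes other than Sfmbt2 and Igf2, which met the thresholds, 5 were higher, among them H19 and Phlda2, and 2 were lower. Peg10, also among the 5, had a WT mean of 0.300 FPKM and reached the filter only through KO libraries.

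Summed over 17 trophoblast markers outside the 45 genes, the level was 3522, 1717 and 1821 FPKM in KO replicates 1 to 3, against 133, 99.9 and 140.4 FPKM in the WT libraries. The summed level of the 6 core pluripotency markers was 420, 457 and 694 FPKM in the KO libraries, against 1419, 1298 and 1369 FPKM in the WT libraries. The 13 visceral endoderm markers summed to 5.66, 10.2 and 14.3 FPKM in KO libraries and to 11.7, 8.38 and 8.36 FPKM in WT libraries, and neither of the 2 tested was called. The list held 21 markers, and the others, Afp and Ttr among them, were not in the expression table. Dab2 alone was at 4.24, 9.16 and 3.86 FPKM in KO replicates 1 to 3, against 6.62, 4.41 and 4.12 FPKM in the WT libraries. The 5 markers of blood and maternal tissue summed to 5.66, 9.88 and 20.8 FPKM in KO libraries and to 8.72, 3.89 and 6.66 FPKM in WT libraries, and of 3 tested Pecam1 alone was called higher. The 3 libraries labelled KO epiblast thus carried trophoblast transcripts at high levels, against their label, and Pou5f1 at low levels. The other epiblast genes differed in how much was left. Lin28a was at 3.47, 2.59 and 9.47 FPKM in KO replicates 1 to 3, against 47.2, 42.4 and 40.0 FPKM in the WT libraries. Otx2 was at 6.85, 2.38 and 24.2 FPKM in KO replicates 1 to 3, against 92.8, 104.7 and 99.2 FPKM in the WT libraries. Sall4 and Utf1 stayed well expressed. Sall4, which was not called, was at 168, 123 and 176 FPKM in KO replicates 1 to 3, against 175, 192 and 231 FPKM in the WT libraries. Utf1 was called lower but was still at 207, 293 and 391 FPKM in KO replicates 1 to 3. The ranges of the visceral endoderm sum overlapped, over the part of that marker list that could be read. In dissected tissue, a change in the number of cells of a type and a change in RNA per cell cannot be told apart, and the part of trophoblast cells in the levels of the 45 genes was not tested.

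**Figure D1:**
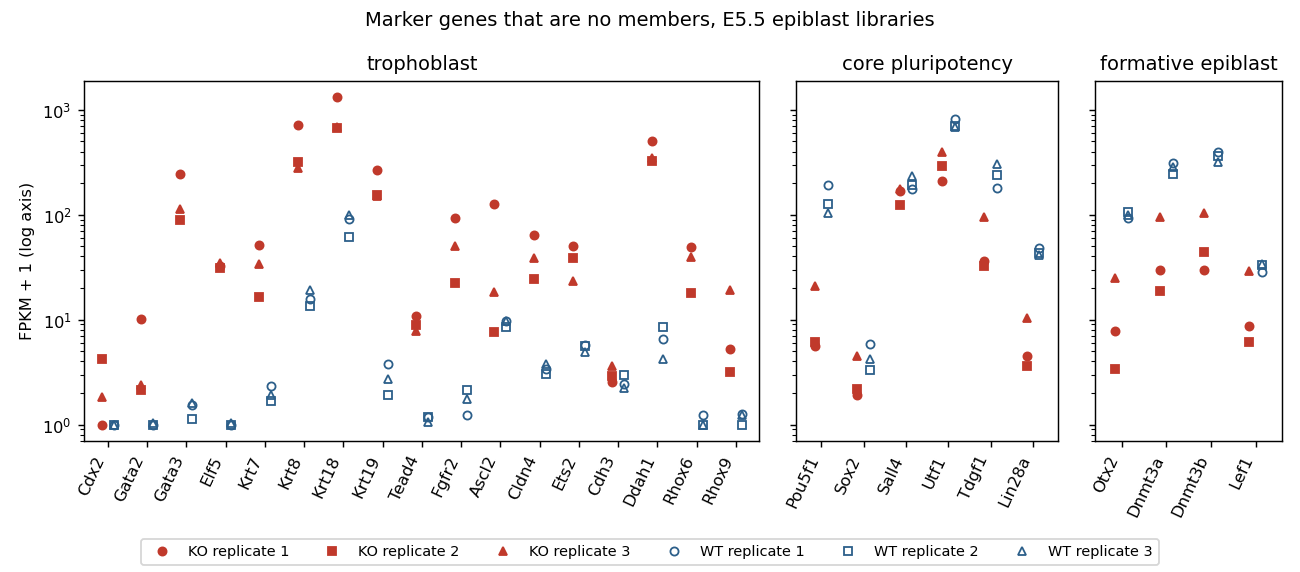
Level of marker genes outside the 45 genes in each E5.5 epiblast library, as FPKM + 1 on a log axis. Filled points are the 3 KO libraries and open points the 3 WT libraries; most trophoblast markers lie higher in KO, while Pou5f1 lies at 4.57 to 19.9 FPKM in KO and at 103 to 190.4 FPKM in WT.

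The 45 genes summed to 1869, 942 and 985 FPKM in KO replicates 1 to 3, against 21.9, 22.2 and 25.7 FPKM in WT replicates 1 to 3. KO replicate 1, the library with the highest trophoblast sum and the lowest core pluripotency sum, had the highest sum of the 45 genes. It held the highest of the 3 KO values for 28 genes (62.2%), where 33.9% of the 3535 genes at 5 FPKM or more in each KO library were highest there. KO replicate 2 was highest for 11 genes (24.4%, where 19.09% of the 3535 genes were) and KO replicate 3 for 6 (13.3%, where 47.0% were). Across the genes, mean levels in KO libraries ran from 5.64 FPKM (Crat) to 186 FPKM (Ndrg1) with a median of 13.3, while the median of the WT means was 0.404 FPKM. The log2 ratio of the means, each with 1 FPKM added, ran from 1.56 for Crat to 6.95 for Tinagl1, with a median of 3.38. The highest and the lowest KO library differed by a median factor of 2.05 for the 45 genes, and of 1.46 for the 3535 genes.

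Values ran on across each threshold. Wls (1.96 FPKM), Phactr1 (1.66 FPKM) and Ndrg1 (1.57 FPKM) had the highest WT values at E5.5 within them, and Baz1a (2.02 FPKM), Rai14 (2.04 FPKM) and Rab12 (2.05 FPKM) lay just outside. In their lowest KO library, Crat (5.17 FPKM), Zbtb10 (5.19 FPKM) and Nhsl1 (5.27 FPKM) lay just inside, and Cited2 (4.83 FPKM), Sigirr (4.57 FPKM) and Bmi1 (4.53 FPKM) just outside. By their mean in the WT ICM, Lgals3 (17.9 FPKM), Ocm (13.8 FPKM) and Fos (13.6 FPKM) were nearest the cap on the inside, and Pdgfa (22.3 FPKM), Cd55 (23.1 FPKM) and Pqlc1 (23.6 FPKM) were nearest on the outside.

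Promoter windows of 300 bases, from 250 bases before to 50 bases after an annotated start, were available in the RefSeq set (build GRCm38.p6) for 29 of the 45 genes, in 41 windows. The windows were poor in CpG, the dinucleotide at which mammalian DNA is methylated. Their median ratio of observed to expected CpG was 0.53, against 0.75 over 7203 windows of 5528 genes of the expression table. The 1483 windows of 1153 other genes that were equally low in WT libraries had a median of 0.57, so the ratio was close to that of low genes as a class. A ratio of 0.6 or more was reached by 34.1% of the 41 windows, by 68.2% of all windows and by 46.9% of those of the low genes. The windows ranged widely, from 1 CpG at Ocm to 52 CpG at Pcsk6. Windows of the same gene could also differ. Tinagl1 had 9 CpG and a ratio of 0.333 at the start whose upstream bases are printed below, and 18 CpG and a ratio of 0.654 at another start. The 250 bases upstream of a start are printed for 4 genes that differ in CpG number and whose KO values are given below, Plac1 (2 CpG, chrX:53240111-53240360, minus strand), Tinagl1 (5 CpG, chr4:130175123-130175372, minus strand), Wls (8 CpG, chr3:159839400-159839649, plus strand) and Ahnak (18 CpG, chr19:8989034-8989283, plus strand), each read 5′ to 3′ on its own strand with every CpG in capitals.
Plac1: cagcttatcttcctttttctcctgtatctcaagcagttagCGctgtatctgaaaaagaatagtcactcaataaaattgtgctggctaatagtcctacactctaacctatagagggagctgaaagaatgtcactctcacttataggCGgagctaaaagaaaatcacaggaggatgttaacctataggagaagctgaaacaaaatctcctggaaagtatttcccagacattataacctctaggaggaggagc
Tinagl1: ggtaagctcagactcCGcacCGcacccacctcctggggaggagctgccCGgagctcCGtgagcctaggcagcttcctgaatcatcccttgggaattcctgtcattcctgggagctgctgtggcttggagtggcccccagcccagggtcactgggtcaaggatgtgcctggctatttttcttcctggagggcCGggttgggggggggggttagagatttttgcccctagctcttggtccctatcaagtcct
Wls: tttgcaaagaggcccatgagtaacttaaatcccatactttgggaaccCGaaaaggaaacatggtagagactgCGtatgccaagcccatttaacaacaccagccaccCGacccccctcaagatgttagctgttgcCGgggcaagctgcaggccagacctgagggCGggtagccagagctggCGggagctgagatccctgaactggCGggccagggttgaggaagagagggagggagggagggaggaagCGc
Ahnak: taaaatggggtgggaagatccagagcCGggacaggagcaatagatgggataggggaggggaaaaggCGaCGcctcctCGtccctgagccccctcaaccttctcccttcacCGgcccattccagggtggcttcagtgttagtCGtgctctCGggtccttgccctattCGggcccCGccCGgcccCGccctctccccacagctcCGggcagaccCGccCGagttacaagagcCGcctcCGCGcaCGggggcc

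Short motifs of 7 factor families were searched on both strands. The TEAD letters GGAATG were found in 9 of the 41 windows (22.0%), at 8 genes, including the stretches shown for Tinagl1 and Ahnak, where 12.4% of all windows and 15.4% of those of the low genes held them. The TFAP2 letters GCCNNNGGC were in 14.6% of the 41 windows and 24.9% of all windows. The GATA letters AGATAA were in 2 windows (4.88%), of which the Plac1 stretch is 1, against 6.61% of all windows. The E-box CACGTG was in 2.44% of the 41 windows against 10.3% of all windows, the E2F letters GCGGGAA in 9.76% against 8.32%, the STAT letters TTCNNNGAA in 7.32% against 6.25%, and the SOX/TCF letters ACAAAG in 12.2% against 14.01%. A match is a string of letters and not a shown binding site, and motifs can overlap one another.

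The 45 genes were spread over 19 chromosomes, with at most 5 on 1 chromosome (chromosome 2). The nearest pair, Ubash3b and Foxr1 on chromosome 9, lay 3272542 bases apart. Of the 45 genes, 3 were X-linked (6.67%), where 4.04% of the 6834 located genes of the table were. Of the 813 CpG positions listed for 4 single-cell methylomes, 0 lay within or up to 1000 bases from any of the 45 genes, so their methylation was not analysed here.

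Secreted and matrix proteins made up 9 of the 45 genes, with KO means of 10.5 to 135.5 FPKM. Tinagl1, a matrix protein associated with basement membranes, was at 180.2, 99.9 and 126 FPKM in KO replicates 1 to 3, against 0.0603, 0 and 0.247 FPKM in the 3 WT libraries. Pros1, which encodes protein S, an anticoagulant and a ligand of TAM receptor kinases, was at 71.5, 12.05 and 36.99 FPKM in KO replicates 1 to 3, against 0.0635, 0.689 and 0.612 FPKM in the 3 WT libraries. Nid1, which encodes nidogen, a linker of laminin and collagen networks, was at 41.4, 11.6 and 12.4 FPKM in KO replicates 1 to 3, against 0.218, 0.132 and 0.2005 FPKM in the 3 WT libraries. KO replicate 1 was the highest for all 3 genes, and no WT library at E5.5 reached 1 FPKM. Dnase1l3, a secreted DNA endonuclease, was at 66.3, 6.76 and 13.4 FPKM in KO replicates 1 to 3, against 0.0216, 0 and 0.0794 FPKM in the 3 WT libraries. Htra1, a secreted serine protease, was at 27.97, 5.94 and 20.6 FPKM in KO replicates 1 to 3, against 0.822, 0.373 and 0.352 FPKM in the 3 WT libraries. Pcsk6, the proprotein convertase PACE4, which cleaves TGF-beta family precursors including Nodal, was at 16.3, 11.6 and 11.9 FPKM in KO replicates 1 to 3, against 0.368, 0.658 and 0.8798 FPKM in the 3 WT libraries. Dnase1l3 and Htra1 were lowest in KO replicate 2, by 9.80-fold and 4.71-fold against the highest KO library, while Pcsk6 was nearly even. The other 3, the membrane metalloproteases Adam8, Adam9 and Adam19, ranged from 5.64 to 17.2 FPKM in KO libraries.

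Ligands, receptors and surface proteins counted 8. Plac1, an X-linked gene of the placenta whose product is found at trophoblast membranes, was at 358, 7.33 and 31.7 FPKM in KO replicates 1 to 3, against 0, 0.1903 and 0.798 FPKM in the 3 WT libraries. It had the widest spread of the 45 genes, 48.9-fold between KO replicates 1 and 2. Wls, the carrier that brings Wnt ligands to the cell surface, was at 38.8, 21.1 and 24.8 FPKM in KO replicates 1 to 3, against 1.87, 1.17 and 1.96 FPKM in the 3 WT libraries. Wnt7b, a Wnt ligand of the chorion and placenta, was at 9.37, 7.805 and 6.85 FPKM in KO replicates 1 to 3, against 0, 0 and 0.0572 FPKM in the 3 WT libraries. Both genes lay within 2-fold across KO libraries at E5.5, and Wls had the highest WT value of all 45 genes at that stage. Il17b, a cytokine of the interleukin 17 family, was at 19.3, 8.32 and 10.1 FPKM in KO replicates 1 to 3, against 0.627, 0 and 0.585 FPKM in the 3 WT libraries. Hbegf, an EGF receptor ligand known for its role in blastocyst attachment, was at 9.05, 8.96 and 7.9 FPKM in KO replicates 1 to 3, against 1.001, 0.479 and 1.09 FPKM in the 3 WT libraries. Il17b was highest in KO replicate 1, and Hbegf had the narrowest spread of all 45 genes across KO libraries. Procr, the receptor of protein C, and Il2rg, the shared gamma chain of several interleukin receptors, had KO values of 5.82 to 14.3 FPKM.

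Cytoskeletal and membrane proteins counted 9. Lgals3, which encodes galectin-3, a lectin that binds beta-galactosides, was at 133, 48.4 and 46.9 FPKM in KO replicates 1 to 3, against 0.859, 0.288 and 0.616 FPKM in the 3 WT libraries. Gsn, which encodes gelsolin, a protein that severs actin filaments, was at 72.7, 18.3 and 40.6 FPKM in KO replicates 1 to 3, against 0.171, 0.164 and 0.625 FPKM in the 3 WT libraries. Ahnak, a very large scaffold protein at the plasma membrane, was at 63.8, 22.1 and 29.95 FPKM in KO replicates 1 to 3, against 0.0321, 0.182 and 0.313 FPKM in the 3 WT libraries. KO replicate 1 held the highest value of all 3. Phactr1, which binds actin and protein phosphatase 1, was at 43.99, 18.1 and 55.9 FPKM in KO replicates 1 to 3, against 0.426, 1.66 and 0.592 FPKM in the 3 WT libraries. Parva, which links integrins to actin, was at 25.7, 10.5 and 16.9 FPKM in KO replicates 1 to 3, against 0.788, 0.121 and 0.507 FPKM in the 3 WT libraries. Dynlt3, a dynein light chain, was at 23.4, 7.67 and 13.6 FPKM in KO replicates 1 to 3, against 1.002, 1.45 and 1.48 FPKM in the 3 WT libraries. Phactr1 was highest in KO replicate 3, and Parva and Dynlt3 in KO replicate 1. The other 3 were Anxa3, a calcium-dependent phospholipid binding annexin, at 12.8, 10.98 and 10.7 FPKM in KO replicates 1 to 3, against 0.0712, 0 and 0.0657 FPKM in the 3 WT libraries, Myof, a ferlin of the plasma membrane, and Nhsl1, an actin regulator, both at 5.27 to 9.98 FPKM in KO libraries. The KO values of Anxa3 lay close together.

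Transcription factors and chromatin proteins counted 7. Sfmbt2, a Polycomb group gene that is imprinted and needed in mouse trophoblast, was at 21.99, 57.7 and 20.7 FPKM in KO replicates 1 to 3, against 0.552, 0.134 and 0.468 FPKM in the 3 WT libraries. Fos, an AP-1 subunit that responds rapidly to growth factors, was at 19.8, 28.5 and 21.4 FPKM in KO replicates 1 to 3, against 0.104, 0 and 0.287 FPKM in the 3 WT libraries. Bhlhe40, a transcriptional repressor, was at 16.8, 21.4 and 9.64 FPKM in KO replicates 1 to 3, against 0.731, 1.2 and 0.5603 FPKM in the 3 WT libraries. For all 3 genes the highest value was in KO replicate 2. Zbtb10, a zinc finger protein, was at 26.6, 5.19 and 8.26 FPKM in KO replicates 1 to 3, against 0.286, 0.459 and 0.514 FPKM in the 3 WT libraries. Grhl3, an epithelial factor of the grainyhead family, was at 7.905, 7.61 and 11.9 FPKM in KO replicates 1 to 3, against 0.267, 0.1502 and 0.526 FPKM in the 3 WT libraries. Zbtb10 differed 5.12-fold between KO libraries. Foxr1, a forkhead protein, had KO values of 7.47 to 9.68 FPKM.

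Enzymes, signalling and other proteins counted 12. Ndrg1, which is induced by hypoxia and differentiation, had the highest KO mean and was at 260.1, 173 and 127 FPKM in KO replicates 1 to 3, against 1.57, 1.01 and 0.967 FPKM in the 3 WT libraries. Pon2, an intracellular lactonase, was at 25.7, 51.5 and 47.8 FPKM in KO replicates 1 to 3, against 0.224, 0.941 and 1.36 FPKM in the 3 WT libraries. Tradd, the adaptor of the tumour necrosis factor receptor, was at 20.2, 34.4 and 15.1 FPKM in KO replicates 1 to 3, against 0.916, 1.11 and 1.12 FPKM in the 3 WT libraries. At E5.5, the lowest KO value of Ndrg1 lay far above the highest WT value, and Pon2 was lowest in KO replicate 1, unlike most of the 45 genes. Fam129a, a stress-responsive gene also named Niban1, was at 16.6, 22.2 and 13.8 FPKM in KO replicates 1 to 3, against 0.759, 0.5101 and 0.352 FPKM in the 3 WT libraries. Ocm, which encodes oncomodulin, a calcium-binding protein, was at 15.6, 10.5 and 15.8 FPKM in KO replicates 1 to 3, against 0 FPKM in all 3 WT libraries. Ube2l6, an enzyme that conjugates the interferon-induced ubiquitin-like protein ISG15, was at 7.497, 11.9 and 15.4 FPKM in KO replicates 1 to 3, against 0.337, 0.222 and 0.0778 FPKM in the 3 WT libraries. Ocm was 0 in every WT library at E5.5, and was 1 of 2 genes listed so at that stage, with Wdr72. Crat, the carnitine acetyltransferase at the lower bound of the thresholds, was at 5.17, 5.19 and 6.56 FPKM in KO replicates 1 to 3, against 1.47, 0.996 and 1.29 FPKM in the 3 WT libraries. The other 5, B3gnt3, Ubash3b, Wdr72, Ankrd33b and Tmco4, had KO values of 6.40 to 15.4 FPKM.

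**Figure D2:**
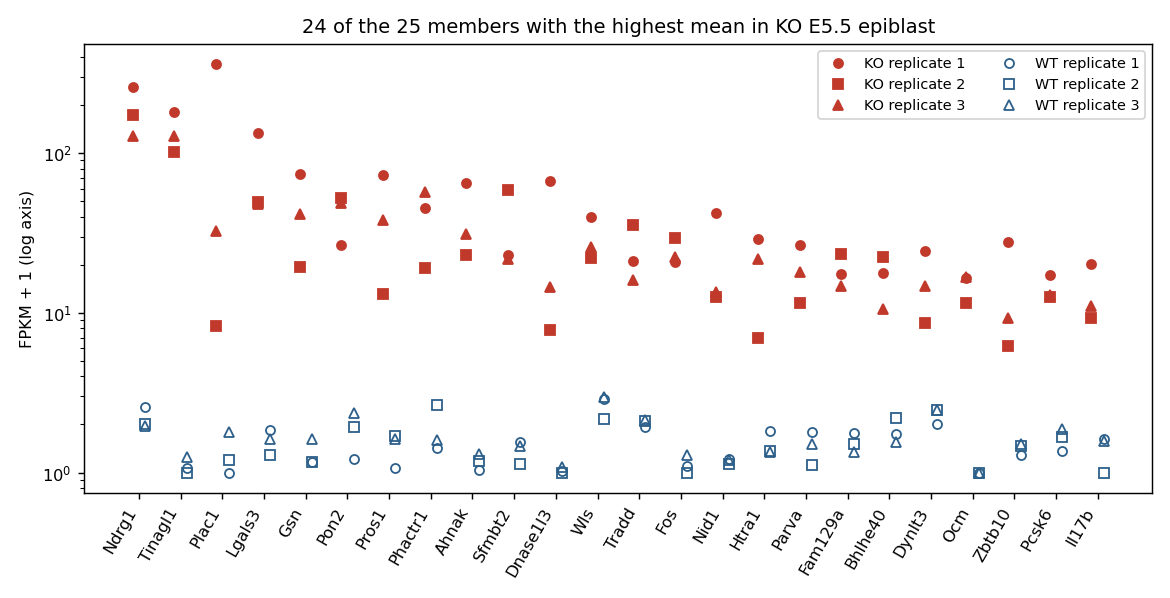
Level of 24 of the 25 genes with the highest KO mean in each E5.5 epiblast library, as FPKM + 1 on a log axis, with 3 KO libraries and 3 WT libraries for each gene. The thresholds of 5 and 2 FPKM keep the groups apart by construction; Plac1 shows the widest spread of KO values, from 7.33 to 358 FPKM.

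The ICM at E3.5 gave a comparison of KO and WT that the thresholds did not use, apart from the cap on the WT ICM mean. Of 36 with a mean of at least 1 FPKM over the 14 ICMs, 0 were higher in KO, also at an unadjusted p under 0.05, and 8 were lower (limma on log2(FPKM + 1), adjusted p under 0.05 over all 5443 genes tested). The background was 3.44% of all genes called higher and 24.9% called lower, so the 22.2% of tested genes that were lower was near the share of genes at large. The median log2 difference of the 36 genes was -0.79, against -0.65 over all genes, and 88.9% of them lay below 0, against 80.5% of all genes. The 9 genes not tested were Adam8, Adam19, Bhlhe40, Myof, Nhsl1, Phactr1, Wdr72, Wls and Wnt7b.

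The median of a gene was 1 FPKM or more for 18 of the 45 genes in KO ICMs (40%, where 62.5% of all genes were) and for 34 in WT ICMs (75.6%, where 75.7% of all genes were). The WT median was the higher for 36 genes (80%, where 72.9% of all genes were). In single ICMs, 13 to 31 of the 45 genes were at 1 FPKM or more in KO, against 25 to 38 in WT. KO ICM replicates 1, 4 and 6 held the fewest, 13, 15 and 13 genes, and also the fewest genes of the whole table at that level, 3628, 3642 and 3883, where the other 4 KO ICMs held 4522 to 5136 and the WT ICMs 5110 to 5718. In this respect the KO and WT ICMs overlapped, and the number of genes detected moved with the lower level of the 45 genes. Its part in that level was not tested.

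Ube2l6 was at 0 to 8.41 FPKM (median 0.924) in the 7 KO ICMs, against 5.204 to 20.5 FPKM (median 9.56) in the 7 WT ICMs, a log2 difference of -2.22 (SE 0.52, adjusted p = 0.00654), and was below the WT mean in 7 of 7 KO ICMs. Anxa3 was at 0 to 7.37 FPKM (median 0.144) in the 7 KO ICMs, against 1.28 to 32.3 FPKM (median 6.398) in the 7 WT ICMs (log2 difference -2.35, SE 0.63, adjusted p = 0.0126, 7 of 7 KO ICMs below the WT mean). Gsn was at 0.152 to 5.87 FPKM (median 0.431) in the 7 KO ICMs, against 1.33 to 39.9 FPKM (median 6.33) in the 7 WT ICMs (log2 difference -2.11, SE 0.60, adjusted p = 0.0167, 7 of 7). The KO and WT values of all 3 genes overlapped, since the highest KO ICM of each lay above the lowest WT ICM. Hbegf was at 0 to 1.45 FPKM (median 0) in the 7 KO ICMs, against 0.638 to 3.49 FPKM (median 1.81) in the 7 WT ICMs (log2 difference -1.24, SE 0.33, adjusted p = 0.0125, 7 of 7), and 6 KO ICMs were listed at 0. Pon2 was at 0 to 13.1 FPKM (median 0.0803) in the 7 KO ICMs, against 2.79 to 14.7 FPKM (median 7.598) in the 7 WT ICMs (log2 difference -1.87, SE 0.56, adjusted p = 0.0218, 6 of 7). Pros1 was at 0.0284 to 15.9 FPKM (median 2.82) in the 7 KO ICMs, against 6.01 to 18.9 FPKM (median 14.7) in the 7 WT ICMs (log2 difference -1.91, SE 0.58, adjusted p = 0.0236, 6 of 7). The KO and WT ranges overlapped for these genes too. Grhl3 was at 0 to 2.43 FPKM (median 0.0676) in the 7 KO ICMs, against 0.481 to 2.57 FPKM (median 1.46) in the 7 WT ICMs (log2 difference -0.93, SE 0.33, adjusted p = 0.0439, 6 of 7). Tradd was at 0 to 3.07 FPKM (median 1.54) in the 7 KO ICMs, against 1.51 to 7.07 FPKM (median 4.48) in the 7 WT ICMs (log2 difference -1.09, SE 0.40, adjusted p = 0.0478, 7 of 7).

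Without KO ICM replicates 1, 4 and 6, a choice made after seeing the data, 0 of 38 tested genes were called lower, where 328 of all 5549 genes tested (5.91%) were, and the log2 differences ran from -1.89 for Anxa3 (adjusted p = 0.121) and -1.33 for Ube2l6 (adjusted p = 0.0731) to -0.60 for Tradd (adjusted p = 0.309). With quantile normalization, which moved the median of all genes to 0.03 and gave 357 genes higher and 351 lower in place of 187 and 1353, Ube2l6 alone was called lower. Pon2 lost its call without WT ICM replicate 4 (adjusted p = 0.0517), and Pros1 without KO ICM replicate 4 (adjusted p = 0.0505) or 6 (adjusted p = 0.0517). Grhl3 lost it in 9 of the 10 fits without 1 library that tested it, that without WT ICM replicate 7 being the exception, and Tradd in 11 of 14, the exceptions being KO ICM replicates 5 and 7 and WT ICM replicate 3. The calls of Ube2l6, Anxa3 and Gsn passed in all 14 fits without 1 library. The call of Hbegf passed in the 10 such fits that tested it, and in the others Hbegf fell below the filter of 1 FPKM.

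Plac1, Sfmbt2, Tinagl1, Ndrg1 and Lgals3, each above 20 FPKM on average in KO epiblast at E5.5, did not pass the test in the ICM. Plac1 was at 0 to 42.2 FPKM (median 3.81) in the 7 KO ICMs, against 0.142 to 6.12 FPKM (median 3.22) in the 7 WT ICMs (log2 difference 0.01, SE 0.72, adjusted p = 0.994). Sfmbt2 had the largest positive difference, 0.52 (SE 0.49, adjusted p = 0.424), and was at 2.01 to 9.44 FPKM (median 7.54) in the 7 KO ICMs, against 0.2702 to 11.9 FPKM (median 5.02) in the 7 WT ICMs. The log2 difference was -0.93 for Tinagl1 (SE 0.55, adjusted p = 0.197), -1.23 for Ndrg1 (SE 0.53, adjusted p = 0.0812) and -0.56 for Lgals3 (SE 0.67, adjusted p = 0.531). Differences above 0 were found for 4 genes, Sfmbt2, Il2rg (0.36), Dnase1l3 (0.13) and Plac1.

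**Figure D3:**
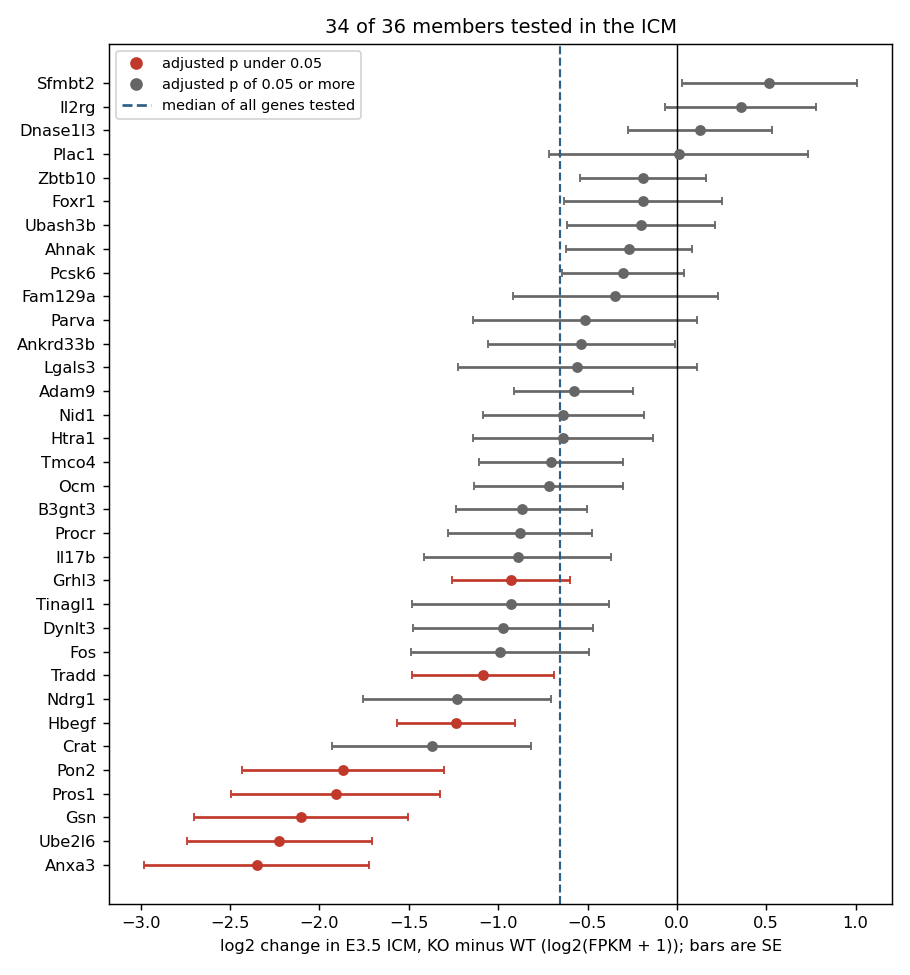
Log2 difference, KO minus WT, of 34 of the 36 tested genes in the E3.5 ICM with its standard error, from limma on log2(FPKM + 1) in 7 KO and 7 WT ICMs. Of these, 8 were called lower and 0 higher; the median of all 5443 genes tested was -0.65, and Plac1 and Sfmbt2 lie at 0.01 and 0.52.

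At E4.5 the genes were read in single cells. The labels name no embryo for a cell, so each group counted as 1 sample and values are given with no test. Of the 45 genes, 12, 18 and 12 were at 1 FPKM or more in the 3 epiblast cells of KO embryos and 14 to 19 in the 7 of WT embryos, and 15 and 14 in the 2 KO primitive endoderm cells, against 22 in the WT cell. Over the whole table, 42.1%, 50.5% and 42.6% of genes were at that level in epiblast cells from KO embryos and 54.0% to 65.2% in those from WT embryos, and 43.1% and 45.7% in the KO primitive endoderm cells, against 47.5% in the WT cell. Of 31 genes whose mean reached 1 FPKM in KO or WT epiblast cells, the KO mean was at least 2-fold higher for 11 (35.5%, where 19.6% of all genes were) and at least 2-fold lower for 13 (41.9%, where 35.4% were), on FPKM + 1. Of 28 in primitive endoderm cells, 7 were higher (25%, where 42.1% of all genes were) and 13 lower (46.4%, where 27.3% were). The highest of the 33 RNA values of a gene lay in an E4.5 cell for 26 of the 45 genes, and in a KO E5.5 library for 16. The share over all genes was not computed, so these counts are not read as a trait of the 45 genes.

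The cells that carried the genes differed. Pros1 was at 135 and 232 FPKM in the 2 KO primitive endoderm cells and at 213 FPKM in the WT cell, and in epiblast cells at 21.3 to 68.3 FPKM in KO and 0.0508 to 22.4 FPKM in WT. Tinagl1 was at 116 and 135 FPKM in the KO primitive endoderm cells and at 42.7 FPKM in the WT cell, and in epiblast cells at 2.96 to 42.0 FPKM in KO and 1.40 to 15.8 FPKM in WT. Ube2l6 in epiblast cells was at 21.2 to 67.2 FPKM in KO and 10.8 to 67.1 FPKM in WT. All 3 genes were thus present in cells of both lineages at E4.5, and the ranges of KO and WT epiblast cells overlapped for each. Nid1 in epiblast cells was at 26.5 to 89.5 FPKM in KO and 0.755 to 28.6 FPKM in WT, and Htra1 at 49.2 to 90.0 FPKM in KO and 1.56 to 96.3 FPKM in WT. Fos was at most 0.0898 FPKM in the 3 KO epiblast cells and up to 66.4 FPKM in the 7 WT cells, and Lgals3 was present in all 3 KO and in 6 of 7 WT cells at 1 FPKM or more.

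A small set was low in every library other than the KO epiblasts at E5.5. Over the other 30 RNA libraries, the highest value was 0.330 FPKM for Myof, 1.10 FPKM for Wdr72 and 1.66 FPKM for Phactr1, and these 3 genes were the only ones under 2 FPKM throughout. Wnt7b (3.23 FPKM), Dnase1l3 (3.35 FPKM) and Wls (4.93 FPKM) stayed under 5 FPKM. The other 39 genes were at 5 FPKM or more in at least 1 ICM or E4.5 cell.

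**Figure D4:**
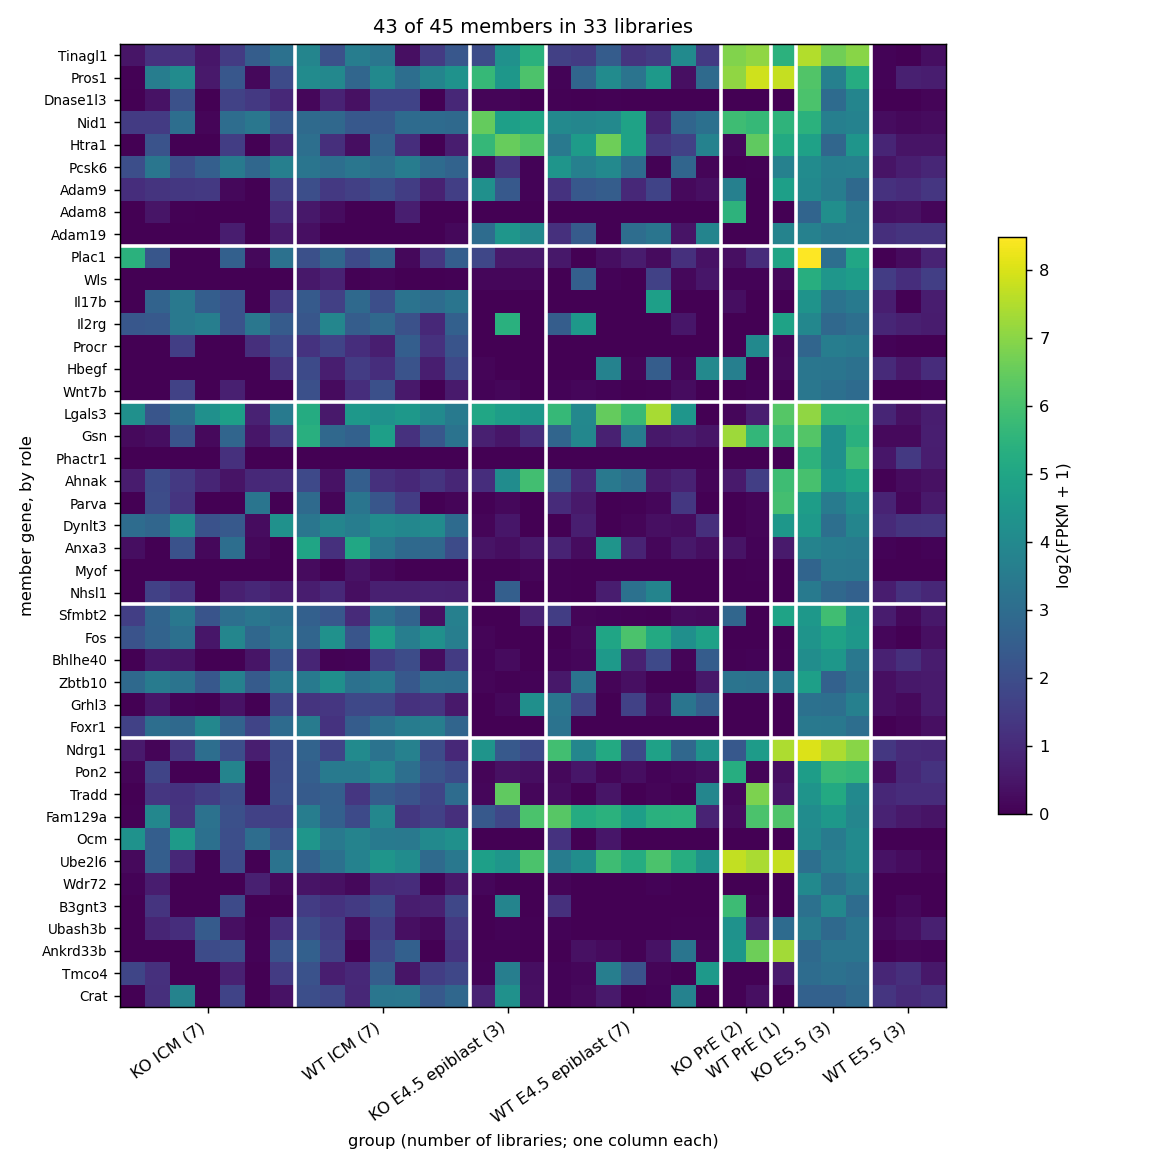
Level of 43 of the 45 genes in all 33 RNA libraries, as log2(FPKM + 1), with genes grouped by role in rows and libraries grouped by stage and genotype in columns. Myof, Wdr72 and Phactr1 are under 2 FPKM outside the KO epiblasts at E5.5. The highest value lay in an E4.5 cell for 26 of the 45 genes, a count given without the share over all genes.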

How the data were processed

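RNA was measured with SMART-seq2 cDNA and Tn5 libraries, per the labels' protocols. The authors deposited 1 table of FPKM values for the 33 RNA libraries, with 7186 lines. The tool that counted the reads is not named. The build mm10 and the aligner STAR 2.7.3 are listed in the submitters' processing notes, with no role or order, beside the trimmer Trim Galore 0.6.4. FPKM values hold no read counts, so the depth of each library is unknown and no counting interval is given. A value of 0 can be a failed estimate.

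The 4 lines with a repeated gene name were left out. The 45 genes were found with the thresholds stated in the report. The genes and all marker lists were chosen with earlier results of these data known. Genes named with their values at E5.5 are the 25 with the highest mean in KO libraries, those called in the ICM, those on a marker list and those nearest each threshold. Anxa3, Ube2l6, Grhl3 and Hbegf were named through the ICM call, Wnt7b through a marker list and Crat as nearest a threshold. Others are given by their range. Of the 45 genes, 2 are in the counts but are not reported here by name.

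KO and WT libraries were compared with limma 3.58.1 in R 4.3.3 (trended, robust empirical Bayes) on log2(FPKM + 1), keeping genes whose mean over the libraries compared reached 1 FPKM, with Benjamini-Hochberg adjustment over all genes tested and a threshold of 0.05. Log2 differences with a pseudocount of 1 understate the change of low genes. The procedure was checked on simulated data. Alternatives were other pseudocounts (0.1 and 5), filters (none and 5 FPKM), scaling by quantiles or by median ratios, moderation without robustness, a replicate block and leaving out each library in turn. E4.5 cells were summarised without a test, and a gene entered where its mean reached 1 FPKM in KO or WT cells. Promoter windows and gene positions came from RefSeq tables (GRCm38.p6). The CpG ratio is the number of CpG times the window length, divided by the product of the C and G counts. The deposited methylation calls of 4 single cells were read only for their positions. H3K4me3 and ATAC data were not analysed here.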

Additional observations from a re-analysis of the deposited data

Results flagged for a closer look

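KO ICMs, WT ICMs and WT epiblast cells at E4.5 were searched for 29 genes, those of the 25 with the highest KO mean that are named, those called in the ICM and those on a marker list. Of 87 groups of 7, 3 held no spread, and of the 84 tested 12 (14.3%) held a value whose gap to its nearest neighbour, on log2(FPKM + 1), was over 0.568 of the group's range. Chance would flag about 1 in 20 groups if values were normally distributed. Groups with many values of 0, and groups of single cells, need not follow this rate, so the 14.3% is not read as an excess. Among KO ICMs, replicate 7 was high for Bhlhe40 (3.66 FPKM), Grhl3 (2.43 FPKM) and Hbegf (1.45 FPKM), and replicate 5 for Phactr1 (1.24 FPKM). Among WT ICMs, replicate 2 was low for Lgals3 (0.485 FPKM), where the others were at 10.3 to 35.9 FPKM. Among WT epiblast cells at E4.5, single high cells were found for Anxa3 (19.8 FPKM), Il17b (26.7 FPKM), Ocm (1.39 FPKM), Sfmbt2 (1.89 FPKM), Tradd (13.8 FPKM) and Zbtb10 (8.56 FPKM), and 1 low cell for Fam129a (0.804 FPKM, where the others were at 26.0 to 76.6 FPKM).

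Ube2l6, Hbegf, Anxa3, Gsn and Tradd were flagged because all 7 KO ICMs lay below the WT ICM mean while all 3 KO epiblasts at E5.5 lay above the WT mean of that stage. Their log2 differences in the ICM were -2.22, -1.24, -2.35, -2.11 and -1.09 in that order. Of all genes tested in the ICM, 80.5% had a log2 difference below 0. The share of all genes with 7 of 7 KO ICMs below the WT mean was not computed. The thresholds fixed the E5.5 direction, and the difference between the stages was not tested.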

How the results depend on the processing

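The count of genes called lower in the KO ICM was 8, and moved to 5 with a filter at 5 FPKM (16 genes tested), to 1 with quantile normalization and to 0 without KO ICM replicates 1, 4 and 6, an alternative chosen after seeing the data, where 328 of 5549 genes were lower. Leaving out 1 library gave 5 to 8, with 5 without KO ICM replicate 6 or WT ICM replicate 1, 4 or 5. Median ratio scaling gave 6, with 306 genes called higher and 707 lower over the whole table and a median of -0.40. Quantile normalization gave 357 higher and 351 lower, with a median of 0.03, where the fit of the report had 187 and 1353. The cause was not tested. No gene of the 45 was called higher in the ICM under any alternative run, and no log2 difference of the 8 called genes reversed. At E5.5, the count of trophoblast markers called higher was 14, and 11 to 14 under the alternatives run, with 11 at a filter of 5 FPKM and 12 with a pseudocount of 5. The 14 hold the markers that had met the thresholds, which fixed their direction, and 9 remained without them. They also hold Gata2, Gata3 and Rhox9, which reached the filter only through KO libraries. The narrow range of the count was therefore partly fixed in advance. No pairing of libraries by replicate number was seen in the ICM. Correlations of same-numbered deviations were -0.133 to 0.155 there, and 1 of 7 libraries correlated best with its own number. At E5.5 the correlations were -0.0224 to 0.118 and 2 of 3 libraries did so, and 3 libraries are too few to decide. With the replicate block, 6 of the 45 genes were lower in the ICM, without Grhl3 (adjusted p = 0.0967) and Tradd (adjusted p = 0.0577). The depth is unknown, and single ICMs with few detected genes limit what low genes can show.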
